A study of Homo sapiens with 6 samples.

Results

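The genes described here are 9 complement components and regulators: C3, CFB, C1R, C1S, CFI, SERPING1, CD46, CD55 and CD59. They were taken by symbol from tables of 26255 gene symbols, and all 9 were found. The RNA came from BxPC-3, an established line of human pancreatic ductal adenocarcinoma, sequenced in 3 groups of 2 libraries each. Parent cells received no treatment, NC-1 cells received the negative control treatment, and miR-4711-5p cells received the microRNA, 36 h before the RNA was taken. NC-1 and miR-4711-5p cells share the transfection, which Parent cells did not have, so NC-1 against Parent measured the transfection and the control duplex together. The sources do not say whether the 2 libraries of a group came from separate cultures, and p-values then measure the spread between libraries, which may be technical.

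Complement is a cascade of plasma proteases that marks cells and microbes for removal. In the classical pathway, the proteases C1r and C1s cut the next components once C1q has bound. In the alternative pathway, factor B (CFB) joins C3b, the active fragment of C3, to form the enzyme that cuts further C3. The liver makes most of the circulating proteins, but epithelial cells, including tumor cells, also transcribe several of them. Cells protect themselves with membrane proteins. CD46 is a cofactor for the cutting of C3b by factor I (CFI), CD55 breaks up the C3-cutting enzymes, and CD59 blocks the last step, in which a pore forms. SERPING1 encodes the C1 inhibitor, which inactivates C1r and C1s.

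The mature miR-4711-5p is shown with its seed, bases 2 to 8 from the 5′ end, in capitals, since the sites below are matches to it. The sequence is from RefSeq, GRCh38.p14, minus strand of chr1:59733269-59733291.
miR-4711-5p: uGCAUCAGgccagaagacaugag

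Matches to the seed were searched in the longest annotated 3′ untranslated region (UTR) of each gene (GENCODE v44 lifted to GRCh37), as CTGATGCA, CTGATGC or TGATGCA, of which the first holds the other two. Of the 9 genes, 2 held a match, C1R and CD59. Of the 11185 genes tested for expression that had an annotated 3′ UTR, 18.4% held one. Both sites are shown 5′ to 3′ on the strand of the mRNA with the matching bases in capitals.
C1R, chr12:7187724-7187731, minus strand: tattaaaattaCTGATGCAgaaagaccgtg
CD59, chr11:33726230-33726236, minus strand: aaatgccggctCTGATGCtaatcggcgac

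The C1R match, an 8-base site, begins at base 105 of a UTR of 323 bases, and both annotated transcripts carry at least its first 7 bases. The CD59 match, a 7-base site, begins at base 5585 of a UTR of 7265 bases and is present in 4 of 15 transcripts. No match was found in the 3′ UTRs of C3, CFB, C1S, CFI, SERPING1, CD46 or CD55. A match describes these letters and not a site in use.

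Values are FPKM, the fragments of a gene divided by its exon length and scaled between libraries. They can be set side by side between genes because they are per length. KLF5, the known target from which the study set out, was at 114 and 124 FPKM in Parent, 115 and 120 in NC-1, and 66.8 and 59.2 with miR-4711-5p, so both libraries with the microRNA were below all 4 controls. The 6 ductal epithelial markers were present in all libraries (summed 5165 to 6163 FPKM), and SMAD4, known to be deleted in BxPC-3, was listed at 0 in all of them. Markers of hepatocytes, the main source of plasma complement, summed to at most 0.189 FPKM in any library, all 5 under 1. The sum of 6 macrophage and leukocyte markers was 15.4 to 16.9 FPKM in Parent, 16.1 to 17.0 in NC-1 and 13.2 to 14.5 with miR-4711-5p, with TYROBP listed at 0 in all libraries and CD68 making up most of it. Fibroblast markers summed to 1.28 to 2.43 FPKM and acinar markers, nearly all PRSS1, to 0.730 to 5.10. Depth in reads is not kept by FPKM. Relative to the first Parent library, the steps between low values put it at 0.751 to 1.21 in the other 5 libraries.

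Differences were tested with limma on log2(FPKM + 1) over all 12040 genes that averaged at least 1 FPKM, and a gene was called at a Benjamini-Hochberg adjusted p under 0.05. Log2 fold changes are on that scale, which understates changes of genes near 1 FPKM. With 2 libraries against 2, an exact permutation test of 1 gene cannot go below p = 0.333. Of the 9 genes, 8 passed the filter, each of them above 1 FPKM in all 6 libraries, and SERPING1 did not. In bulk RNA, fewer cells of a kind and less RNA per cell cannot be told apart.

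After miR-4711-5p, CFB RNA was higher and CD55 and CD59 RNA were lower than in either control, and C1R was lower in both comparisons as well. Against Parent, 1 of the 8 tested genes was called higher (CFB) and 3 lower (C1R, CD55 and CD59), where 18.7% of all genes tested were called higher and 24.7% lower. Against NC-1, 1 was called higher (CFB) and 5 lower (C3, C1R, CD46, CD55 and CD59), where 18.4% of all genes were called higher and 21.2% lower. The median log2 fold change of the 8 genes was -0.11 against Parent and -0.42 against NC-1, and that of all genes tested was -0.0127 and 0.0038. The 2 comparisons share the miR-4711-5p libraries. In NC-1 against Parent, 2 of 8 were called higher (C3 and CD46) and 0 lower, with 12.1% and 15.1% of all genes called. At an unadjusted p under 0.05, limma gave 5 higher and 0 lower, where 18.6% and 22.0% of all genes were higher and lower. When the libraries were instead rescaled to equal FPKM sums, the median of all genes against Parent moved to 0.11, and the share of calls that were higher moved from 43.1% to 69.3% against Parent, from 46.5% to 58.4% against NC-1 and from 44.4% to 69.9% in NC-1 against Parent. Of the 9 genes, 5 were then called higher in NC-1 against Parent, where 19.3% of all genes were called higher and 8.31% lower. Both miR-4711-5p libraries lay above all 4 control libraries for CFB and CFI, as for 23.8% of all genes tested, and below all 4 for C3, C1R, CD55 and CD59, as for 26.3%.

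**Figure D1:**
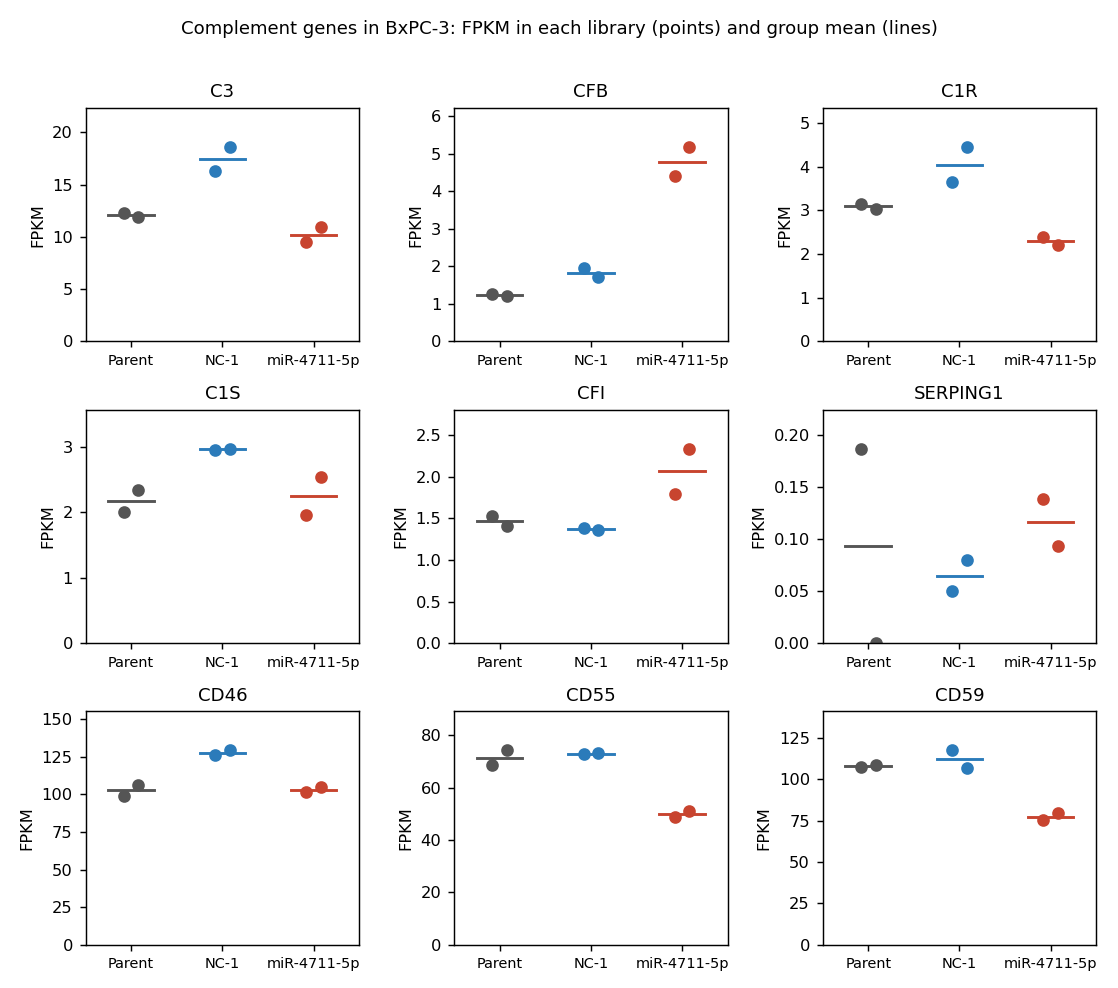
FPKM (vertical axes, linear from 0, each panel with its own range) of the 9 genes in the 2 libraries of each group (points), with the group mean (lines). The miR-4711-5p points are above all control points for CFB and CFI and below all of them for C3, C1R, CD55 and CD59.

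C3, the central component, was at 12.3 and 11.9 FPKM in Parent, 16.4 and 18.6 in NC-1, and 9.50 and 10.9 with miR-4711-5p. The groups did not overlap, with NC-1 highest and miR-4711-5p lowest. Group means were 12.1 ± 0.224 (SD, n = 2), 17.5 ± 1.59 and 10.2 ± 1.01 FPKM. C3 was lower with miR-4711-5p than in NC-1 (log2 fold change -0.72, limma adjusted p = 0.000684) but was not called against Parent (-0.23, 95% interval -0.43 to -0.03, limma adjusted p = 0.0651). Among genes averaging at least 5 FPKM alone, the second was called (limma adjusted p = 0.0495). NC-1 was itself higher than Parent (0.49, limma adjusted p = 0.00719), a call that was lost without a filter (0.103). The size of the difference for C3 therefore depended on which control it was set against.

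CFB, which carries the protease of the alternative pathway enzyme, was at 1.26 and 1.22 FPKM in Parent, 1.95 and 1.71 in NC-1, and 4.40 and 5.18 with miR-4711-5p. Both libraries with the microRNA were far above every control. The mean of 4.79 ± 0.548 FPKM (SD, n = 2) was 3.85-fold that of Parent (1.24 ± 0.0309) and 2.62-fold that of NC-1 (1.83 ± 0.171). The log2 fold changes were 1.37 against Parent (SE 0.11, limma adjusted p = 9.51e-05) and 1.03 against NC-1 (limma adjusted p = 0.000392). By log2 fold change CFB was the 109th highest of the 12040 genes against Parent and the 140th against NC-1. NC-1 against Parent was not called (0.33, limma adjusted p = 0.0565), although both NC-1 libraries were above both Parent libraries. It was called with a pseudocount of 0.1 or 0.01 (adjusted p = 0.0373 and 0.0316), without a trend (0.0385) and with equal FPKM sums (0.0353).

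Within each library, CFB RNA amounted to 0.103 and 0.102 of C3 RNA in Parent, 0.119 and 0.0917 in NC-1, and 0.463 and 0.474 with miR-4711-5p. A ratio within a library does not depend on how the library was scaled. C3 stayed the more abundant of the pair in all 6 libraries. CFB shares 24 exon bases with its neighbor C2, which had a mean of 0.271 FPKM, and 2249 with a readthrough gene that is not among the symbols of the files.

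The RefSeq window from 250 bases before to 50 after the start of CFB (GRCh38.p14, plus strand, chr6:31945845-31946144) is shown because CFB had the largest change of the 9 genes. Capitals mark matches, in order, to the interferon-stimulated response element (GAAANNGAA, here on the reverse strand), the NF-kappaB consensus and a STAT site (TTCNNNGAA), beginning at positions -139, -112 and -92 from the start.
CFB promoter: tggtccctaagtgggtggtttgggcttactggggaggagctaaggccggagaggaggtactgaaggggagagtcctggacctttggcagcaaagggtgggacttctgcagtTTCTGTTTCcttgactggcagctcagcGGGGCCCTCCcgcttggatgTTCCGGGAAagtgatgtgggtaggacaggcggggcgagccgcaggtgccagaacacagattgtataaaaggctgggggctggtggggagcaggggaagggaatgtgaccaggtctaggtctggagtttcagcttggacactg

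Such windows were given for 6 of the 9 genes, and both strands were searched with these 3 motifs and the C/EBP motif (TTGCNNAA). Of the 27305 genes in the table, 9.86% held the response element, 13.3% the NF-kappaB consensus, 9.38% the STAT site and 12.7% the C/EBP motif. Of the 6, CFB alone held the response element or the NF-kappaB consensus. C1R and CD59 each held a STAT site and a C/EBP match in at least 1 of their windows, and CFI, CD46 and CD55 held no match. C3, C1S and SERPING1 were not searched. A match says only that these letters are in the window.

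C1R, the first protease of the classical pathway, was at 3.15 and 3.03 FPKM in Parent, 3.65 and 4.45 in NC-1, and 2.38 and 2.196 with miR-4711-5p. The 3 groups did not overlap, with miR-4711-5p lowest. The log2 fold change was -0.61 against NC-1 (limma adjusted p = 0.00321) and -0.31 against Parent (limma adjusted p = 0.0421). The call against Parent was lost without any 1 of the 2 Parent or 2 miR-4711-5p libraries (adjusted p = 0.102 to 0.170), with equal FPKM sums (0.127) and without a filter (0.175). C1R and the related C1RL share 672 exon bases on the same strand, so reads there could count for either.

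C1S, the protease that C1r activates and the neighbor of C1R on chromosome 12, was at 2.01 and 2.34 FPKM in Parent, 2.95 and 2.98 in NC-1, and 1.97 and 2.54 with miR-4711-5p. The miR-4711-5p libraries spanned the Parent libraries and were below both NC-1 libraries. Neither comparison was called. The log2 fold change was 0.03 against Parent (95% interval -0.24 to 0.31, limma adjusted p = 0.851) and -0.29 against NC-1 (-0.57 to -0.02, limma adjusted p = 0.0854). C1R over C1S was 1.57 and 1.29 in Parent, 1.23 and 1.495 in NC-1, and 1.21 and 0.864 with miR-4711-5p.

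SERPING1 was close to the limit of detection. It was at 0.186 FPKM in the first Parent library and listed at 0 in the second, at 0.0497 and 0.0795 in NC-1, and at 0.139 and 0.0927 with miR-4711-5p. The groups overlapped, no test was run, and a difference was not detectable at this level. The proteases C1R and C1S were thus present at 1.97 to 4.45 FPKM where their inhibitor was at most 0.186 in any library.

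CFI, the protease that inactivates C3b, was at 1.53 and 1.41 FPKM in Parent, 1.39 and 1.36 in NC-1, and 1.80 and 2.34 with miR-4711-5p. Both libraries with the microRNA were above all 4 controls, but they also differed most from each other. The log2 fold change was 0.31 against Parent (95% interval 0.02 to 0.60, limma adjusted p = 0.0801) and 0.36 against NC-1 (0.08 to 0.65, limma adjusted p = 0.0511), and neither was called. Both calls were gained with equal FPKM sums (adjusted p = 0.0315 and 0.0335) and with limma run without a trend (0.0403 and 0.026). That against NC-1 was also gained with a pseudocount of 0.01 (0.045), with median-of-ratios rescaling (0.0493) and without miR-4711-5p replicate 1 (0.0426). Without miR-4711-5p replicate 2, the log2 fold changes were 0.18 against Parent and 0.24 against NC-1. CFI over C3 was 0.125 and 0.118 in Parent, 0.0850 and 0.0731 in NC-1, and 0.189 and 0.214 with miR-4711-5p.

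The membrane regulators were by far the most abundant of the 9 genes. In Parent, CD59, CD46 and CD55 ranked 803, 851 and 1256 among all genes by mean FPKM, C3 ranked 5935, and the other 5 ranked between 9980 and 14976. In Parent, CD46 averaged 103 ± 5.11 and CD59 108 ± 1.15 FPKM (SD, n = 2), close to each other although both CD59 libraries were above both CD46 libraries, and CD55 was below both (71.4 ± 4.05).

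CD55, which accelerates the decay of the C3-cutting enzymes, was at 68.5 and 74.3 FPKM in Parent, 72.8 and 73.3 in NC-1, and 48.8 and 51.3 with miR-4711-5p. The controls overlapped and the miR-4711-5p libraries lay well below them. Its log2 fold change came to -0.50 when compared with Parent (limma adjusted p = 0.00039) and -0.54 against NC-1 (limma adjusted p = 0.000331). NC-1 against Parent was 0.03 (95% interval -0.09 to 0.16, limma adjusted p = 0.671).

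CD59, which blocks the terminal pore, was at 107 and 109 FPKM in Parent, 117 and 107 in NC-1, and 75.1 and 79.3 with miR-4711-5p. As for CD55, the controls overlapped and miR-4711-5p was lower than all of them. CD59 had a log2 fold change of -0.48 relative to Parent (limma adjusted p = 0.000626) and -0.53 against NC-1 (limma adjusted p = 0.000446). NC-1 against Parent was 0.05 (95% interval -0.08 to 0.19, limma adjusted p = 0.524).

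CD46, the cofactor for CFI, was at 99.0 and 106 FPKM in Parent, 126 and 129 in NC-1, and 101 and 105 with miR-4711-5p. Here the miR-4711-5p libraries fell within the Parent range and NC-1 stood above both. CD46 was lower with miR-4711-5p than in NC-1 (log2 fold change -0.31, limma adjusted p = 0.00283) and not called against Parent (0.0080, 95% interval -0.11 to 0.12, limma adjusted p = 0.913). With equal FPKM sums it was called higher than in Parent (0.15, limma adjusted p = 0.0484), where the median of all genes was at 0.11. NC-1 was higher than Parent (0.31, limma adjusted p = 0.00566), which was lost without a filter (0.0642). CD46 and CD55 lie on the same arm of chromosome 1 (GRCh37, chr1:207925382-207968858 and chr1:207494864-207560149), and they did not share this order of groups.

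The summed RNA of the 3 membrane regulators was 275 and 289 FPKM in Parent, 316 and 309 in NC-1, and 225 and 236 with miR-4711-5p. The sums did not overlap between groups, with miR-4711-5p lowest. CD46 made up 36.02% and 36.7% of it in Parent, 39.8% and 41.8% in NC-1, and 45.0% and 44.5% with miR-4711-5p. CD46 over CD55 was 1.44 and 1.43 in Parent, 1.73 and 1.76 in NC-1, and 2.08 and 2.05 with miR-4711-5p, so the balance of the regulators also differed between the controls.

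**Figure D2:**
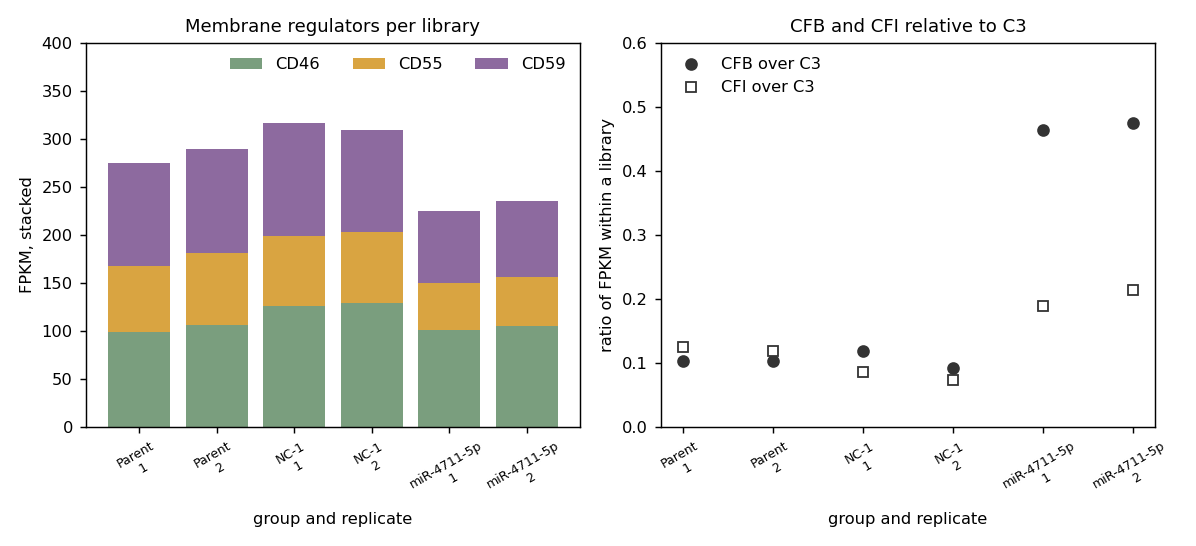
Left, stacked FPKM of CD46, CD55 and CD59 in each library (axis from 0), from 275 and 289 in Parent to 225 and 236 with miR-4711-5p. Right, the FPKM of CFB (filled circles) and CFI (open squares) divided by that of C3 in the same library, with CFB over C3 at 0.463 and 0.474 with miR-4711-5p against at most 0.119 in the controls.

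As a description over 6 libraries, the genes averaging at least 10 FPKM (6648 genes) whose log2 values followed CD59 most closely were RWDD4 (Pearson's r = 0.998), ACACA (0.997) and C1orf110 (0.995). Those closest to CD46 were TXNRD1 (0.992), RAB5B (0.991) and PHF1 (0.984). All points come from the same 3 groups, so these values describe a shared order of groups. ACACA, the carboxylase that starts fatty acid synthesis, was at 30.7 and 30.5 FPKM in Parent, 32.3 and 31.0 in NC-1, and 25.3 and 26.2 with miR-4711-5p. TXNRD1, the cytosolic thioredoxin reductase, was at 61.1 and 63.5, 79.1 and 79.9, and 61.8 and 63.0 FPKM in the same order, highest in NC-1 as CD46 was.

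A wider list of 58 complement genes present in the files was used to place the 9. Of the 49 other genes, 7 passed the filter, 26 were above 0 but under it, and 16 were listed at 0 in all 6 libraries. No gene of the lectin pathway (9 genes) or the terminal pathway (7 genes) passed, and the highest single values there were 0.924 FPKM for MASP2 and 0.712 for C8G. C1QA, C1QB and C1QC, the chains of C1q, were listed at 0 throughout, so C1R and C1S were transcribed where their partner was not detected. Of the soluble regulators under the filter, CFHR3 was highest at 0.798 FPKM.

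Of the 7 other tested genes, 2 were called higher and 4 lower with miR-4711-5p against Parent, where 18.7% and 24.7% of all genes were. Against NC-1, 0 were called higher and 3 lower, where 18.4% and 21.2% of all genes were. At an unadjusted p under 0.05 limma likewise gave 0 higher and 3 lower against NC-1, where 23.6% and 25.7% of all genes were higher and lower. THBD, thrombomodulin, which helps to limit complement on membranes, was at 55.7 and 50.1 FPKM in Parent, 60.2 and 62.2 in NC-1, and 25.3 and 26.0 with miR-4711-5p. Its log2 fold changes were -1.01 (limma adjusted p = 2.62e-05) and -1.22 (limma adjusted p = 1.4e-05). Endothelial cells are a known site of THBD, and these libraries came from an established cancer line. The sum of 4 endothelial markers, mostly CDH5, was 1.33 to 1.39 FPKM in Parent, 3.25 to 3.53 in NC-1 and 0.649 to 0.775 with miR-4711-5p. VWF went the other way between the controls, at 0.279 and 0.319 FPKM in Parent, 0.176 and 0.203 in NC-1, and 0.110 and 0.133 with miR-4711-5p. PECAM1 was at most 0.188 FPKM, and KDR was listed at 0 in 5 of 6 libraries. The cause of the fall of THBD was not tested. ITGB2, the beta chain of the complement receptors CR3 and CR4, was at 3.19 and 2.88, 2.07 and 2.53, and 1.1997 and 1.21 FPKM in the same order of groups. Its log2 fold changes were -0.87 (limma adjusted p = 0.000834) and -0.58 (limma adjusted p = 0.00567), and 303 of its exon bases overlap an antisense gene. ITGB2 marks leukocytes, whose general marker PTPRC was at most 0.0253 FPKM and listed at 0 in 4 of 6 libraries.

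CLU, clusterin, an inhibitor of the terminal pathway, was at 77.5 and 76.8 FPKM in Parent, 70.4 and 78.0 in NC-1, and 62.9 and 66.8 with miR-4711-5p. CLU was called lower in both comparisons (-0.25, limma adjusted p = 0.0142, and -0.19, limma adjusted p = 0.0407). Both calls were lost without a filter (limma adjusted p = 0.114 against Parent and 0.199 against NC-1) and with equal FPKM sums (0.159 and 0.0993). That against NC-1 was also lost without a trend (0.0764) and with only the 2 groups compared in the fit (0.0675). The call against NC-1 was lost when any library other than NC-1 replicate 1 was left out (adjusted p = 0.0673 to 0.211), and that against Parent without either Parent library or miR-4711-5p replicate 1 (0.0591 to 0.102).

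CFD, factor D, which cuts factor B, differed mainly between Parent and both treated groups. It shares 255 exon bases with MED16, a gene on the opposite strand that averaged 16.4 FPKM. The strand option is not given, so reads there could count for either. CFD was at 8.17 and 6.04 FPKM in Parent, 3.10 and 4.54 in NC-1, and 4.09 and 3.70 with miR-4711-5p. NC-1 and miR-4711-5p overlapped and Parent was above both. It was called lower against Parent (-0.72, limma adjusted p = 0.013) and in NC-1 against Parent (-0.75, limma adjusted p = 0.0185), and both calls were lost without Parent replicate 1 (adjusted p = 0.0888 and 0.114). The call with miR-4711-5p was also lost without either miR-4711-5p library (0.058 and 0.0804), and that in NC-1 without NC-1 replicate 1 (0.0922). C1RL was higher than Parent in both treated groups (0.27, limma adjusted p = 0.0136, and 0.38 in NC-1, limma adjusted p = 0.0069). The first of these calls was lost without Parent replicate 2 or either miR-4711-5p library (adjusted p = 0.0637 to 0.0819). C5AR1, a receptor for C5a, was called in no comparison.

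**Figure D3:**
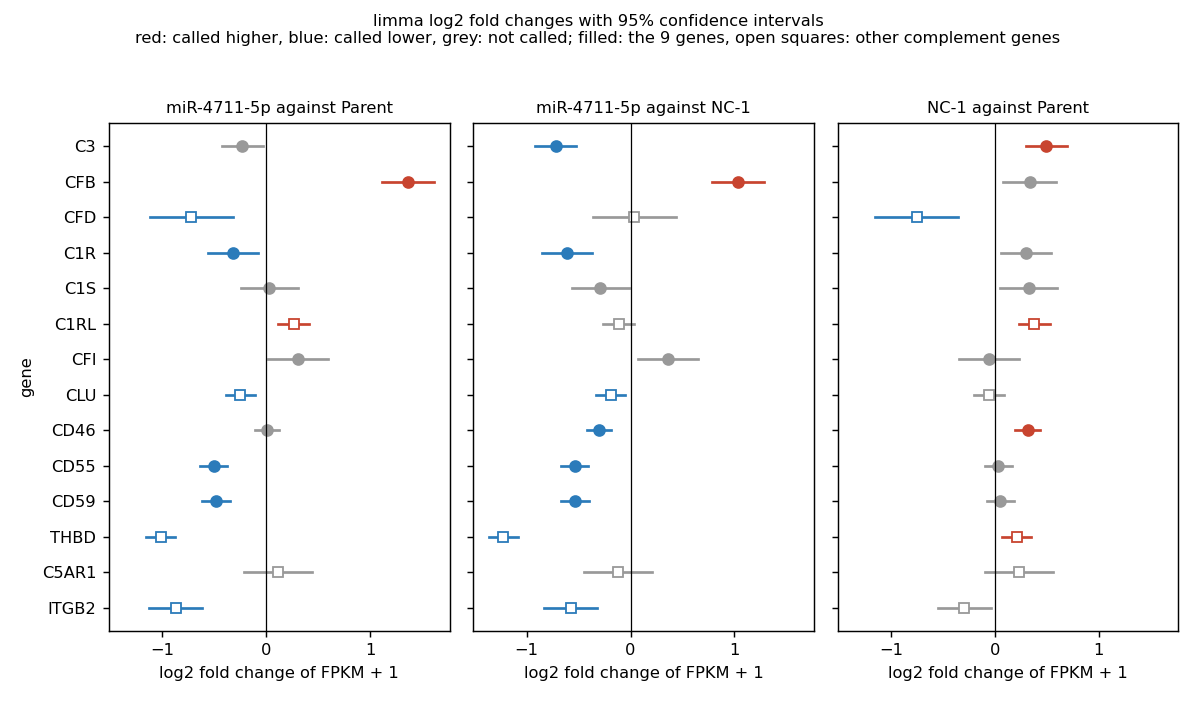
Log2 fold changes of FPKM + 1 (horizontal axes) with 95% confidence intervals from limma for 14 of the 15 complement genes tested, in 3 comparisons. Filled circles are the 8 tested genes of the 9 and open squares other complement genes, with red called higher, blue called lower and grey not called. CFB lies farthest to the right against both controls (1.37 and 1.03) and is the only gene drawn that was called higher in both. CFI also lies to the right in both, uncalled, and C1RL was called higher against Parent alone. THBD, ITGB2, CD55, CD59, C1R and CLU were called lower in both.

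Cytokines and transcription factors known to induce complement genes formed a list of 21, of which 16 were tested. Against Parent 8 were called higher and 2 lower, against NC-1 9 were higher and 2 lower, and in NC-1 against Parent 8 were again higher and 2 lower. The higher counts of all 3 comparisons include IL6, which passed the filter only through the miR-4711-5p libraries. The shares of all genes called in these comparisons are those given for the 9 genes. The 11 calls against NC-1 went to 7 without miR-4711-5p replicate 1 and to 6 without a filter. The 10 calls in NC-1 against Parent went to 6 without Parent replicate 1, to 5 and 4 without NC-1 replicate 1 or 2, and to 2 without a filter. STAT2 and IRF9, factors of interferon signaling, were 2.32-fold and 2.94-fold Parent and 1.98-fold and 2.07-fold NC-1. Both were also called higher in NC-1 against Parent (1.17-fold and 1.42-fold). The inducers named here were picked for calls in both miR-4711-5p comparisons. For those called higher, miR-4711-5p as the highest group was thus fixed by that choice.

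IL6, an inducer of acute phase genes, was at 0.0612 and 0.280 FPKM in Parent, 0.571 and 0.714 in NC-1, and 6.83 and 7.20 with miR-4711-5p, and it passed the filter only through the last group. NFKB2, RELB, IL1A and LIF were called higher in both comparisons, at 1.53-, 1.54-, 1.59- and 2.16-fold against Parent and 1.21-, 1.31-, 1.19- and 1.67-fold against NC-1. Of these, NFKB2, IL1A and LIF were also called higher in NC-1 against Parent (1.27-, 1.34- and 1.296-fold). CEBPA was the one factor called lower in both, at 13.4 and 11.7, 12.9 and 12.0, and 9.04 and 10.4 FPKM. IFNB1, interferon beta, was listed at 0 in the 4 control libraries and at 0.613 and 0.234 FPKM with miR-4711-5p, and IFNG was listed at 0 in all 6. The part of these genes in the levels of CFB, C3 or the other complement genes was not tested.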

How the data were processed

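RNA was sequenced in 3 groups of 2 libraries of BxPC-3 cells (TruSeq stranded mRNA, single-end reads of 75 bases). The authors mapped reads to hg19 with TopHat and Bowtie2 and deposited FPKM per gene symbol, calculated with Cuffnorm. The submitters' processing notes name TopHat2 2.1.1, Bowtie2 2.3.5.1, SAMtools 1.2 and Cufflinks 2.2.1. The gene annotation, strand option and normalization option are not given in the sources used here. Over genes above 0 in all 6 libraries, median-of-ratios factors were 1.006 to 1.007, and over the genes tested 0.9988 to 1.013. FPKM sums ran from 493145 to 550772. The values were thus nearly level by that measure before any rescaling, and equal FPKM sums replace that scale. Since FPKM hold no counts, count models were not applied.

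Genes averaging at least 1 FPKM were tested on log2(FPKM + 1) in R 4.3.3 with limma 3.58.1 (lmFit, contrasts.fit and trended eBayes), all 6 libraries in 1 fit with 4.15 prior and 3 residual degrees of freedom, two-sided, with Benjamini-Hochberg adjustment. The step was run on simulated data in which far fewer genes changed than were called here. That run does not measure the share of false calls in these comparisons. Folds are ratios of mean FPKM without a pseudocount. Seed matches were searched in 3′ UTRs of GENCODE v44 lifted to GRCh37, where 10597 tested genes matched by symbol and 592 by an older symbol, and motifs in RefSeq promoter windows of GRCh38.p14. Tables were handled in Python 3.11.15 with pandas 2.3.3 and numpy 2.4.6, sequences with pysam 0.24.0 and plots with matplotlib 3.10.9.

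Named were the 9 genes, every gene of the wider complement list that averaged at least 1 FPKM and the highest below it, the inducers called in both miR-4711-5p comparisons, the 3 genes most like each of the 2 most abundant members, and KLF5. Results of 2 genes that this rule names are not reported here, although both stay in the counts. The members and lists were chosen with earlier results of these data known. Alternatives were other pseudocounts (0.1 and 0.01), filters (none, and 5 FPKM), scalings, fits, a replicate block, a 1.5-fold requirement and leaving out each library. Rescaling to equal FPKM sums was added after the data were seen.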

Additional observations from a re-analysis of the deposited data

How the results depend on the processing

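CD55 and CD59 kept their direction and their calls against both controls under every alternative run except a required 1.5-fold, which neither reached. CFB kept both calls under every alternative but the filter of 5 FPKM, which it did not pass and where it has no value. With 1.5-fold required, calls among the 9 genes went from 4 to 1 against Parent, from 6 to 3 against NC-1 and from 2 to 0 in NC-1 against Parent. In the wider list they went from 10 to 4, 9 to 5 and 5 to 1. Calls over all genes fell too, from 2255 higher and 2975 lower to 717 and 769 against Parent. Against NC-1 they fell from 2214 higher and 2549 lower to 549 and 743. Without a filter, more genes entered the adjustment, and NC-1 against Parent gave 0 of the 9 and 1 of the wider list. With equal FPKM sums it gave 5 and 9, while calls over all genes went to 2327 higher and 1000 lower. Over all genes, the same comparison went from 1456 higher and 1823 lower to 395 and 448 without a filter, and to 305 and 193 with 1.5-fold. Leaving out single libraries gave 3 to 4, 6 to 7 and 2 to 2 calls among the 9, and 6 to 10, 8 to 9 and 3 to 4 in the wider list, whose calls against Parent went to 6 without Parent replicate 1 or either miR-4711-5p library. The cause was not tested.

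Uncalled values that changed sign, with their range over the fits that leave out 1 library, were C1S (-0.0966 to 0.1591), CD46 (-0.0424 to 0.0583) and C5AR1 (-0.0321 to 0.2558) against Parent, CFD against NC-1 (-0.1818 to 0.2549), and CD55 (-0.0235 to 0.0907), CD59 (-0.0156 to 0.1195) and CLU (-0.1306 to 0.0163) in NC-1 against Parent. CLU there was 0.0270 with equal FPKM sums.

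Same-numbered libraries did not deviate together (correlations of 0.061, 0.003 and -0.009), so the numbers do not pair them. With the number as a replicate block, 3 of the 9 genes were called against Parent, 6 against NC-1 and 2 in NC-1 against Parent, and C1R against Parent was not called (adjusted p = 0.0601). Calls in the wider list were 9, 9 and 4, without THBD in NC-1 against Parent (0.0627). With 2 libraries a group and no read counts, changes of genes near 1 FPKM, such as C1S and CFI, are the least certain.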
